A study of Homo sapiens with 66 samples.

Results

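The transcripts of 10 genes of the NF-kB pathway were followed across RNAseq libraries of myeloma cells treated with prolyl-tRNA synthetase (ProRS) inhibitors. The genes were chosen by name, with earlier results of these data known, and looked up by Ensembl identifier in the gene count table. All 10 were found among 20167 counted genes. They comprise 4 subunits (NFKB1, NFKB2, RELA, RELB), 2 inhibitors (NFKBIA, NFKBIE), 2 feedback targets (TNFAIP3, BIRC3) and 2 adaptors (TRAF1, TRAF3). Each passed the filter on low counts in each of the 39 comparisons below.

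The 66 libraries came from 2 established human multiple myeloma lines, AMO1 (36 libraries, 12 groups) and L363-CFZr (30 libraries, 10 groups), a line derived from L363 that is resistant to the proteasome inhibitor carfilzomib (CFZ). Cells were exposed for 6 h or 24 h to DMSO (the solvent control) or to 1 µM of NCP26, NCP22, halofuginone (HFG, MAZ1392 in the labels) or halofuginol (MAZ1805), each in triplicate. AMO1 cells, labelled wild type, also received CFZ, for which the labels give no dose. The legend of the paper's RNAseq figure gives a nanomolar dose of CFZ, below the 1 µM of the other compounds. Neither line is described as a clone. NCP26 was developed from NCP22, HFG and halofuginol are febrifugine derivatives, and all 4 are directed at the ProRS activity of the EPRS enzyme, which loads proline onto its tRNA.

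NF-kB factors are dimers of REL family proteins. In the canonical arm, inhibitor proteins such as those encoded by NFKBIA and NFKBIE hold RELA and NFKB1 dimers in the cytoplasm until a kinase complex marks the inhibitor for the proteasome, whereas in the non-canonical arm TRAF3 and the cIAP proteins restrain a kinase whose release leads to the processing of the NFKB2 precursor, the partner of RELB. The dimers activate the genes of several of their own restraints, and lesions that activate either arm, loss of TRAF3 among them, are recurrent in multiple myeloma.

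The gene bodies, from GENCODE v44 on GRCh38, lie at chr4:102501330-102617302 (NFKB1, ENSG00000109320), chr10:102394110-102402524 (NFKB2, ENSG00000077150), chr11:65653599-65663090 (RELA, ENSG00000173039), chr19:45001461-45038192 (RELB, ENSG00000104856), chr14:35401079-35404749 (NFKBIA, ENSG00000100906), chr6:44258166-44265788 (NFKBIE, ENSG00000146232), chr6:137867214-137883314 (TNFAIP3, ENSG00000118503), chr11:102317484-102339403 (BIRC3, ENSG00000023445), chr9:120902393-120929173 (TRAF1, ENSG00000056558) and chr14:102777449-102911500 (TRAF3, ENSG00000131323). Promoters were taken from RefSeq on GRCh38.p14 as windows from 250 bases before to 50 bases after a start site. RefSeq windows were found for 8 of the 10 members, and 6 of these 8 held at least 1 match to the 10-base kappa-B motif on either strand (overlapping matches were counted), against 13.25% of all 27305 genes with a window. 3 of the 8 held 2 or more, against 2.47% of all genes. The members were chosen as genes of this pathway, so these shares are a description and not a test. The 8 members have 14 windows, and the 27305 genes have 35116. RELA and TRAF1 had windows without these letters. The stretches below, upstream of the start and shown to place the motif in the promoters of the inhibitor, the feedback targets, a subunit and an adaptor described further on, run 5′ to 3′ along the gene with the matches in capitals. They lie at chr14:35404750-35404849 on the reverse strand (NFKBIA), chr6:137867159-137867213 on the forward strand (TNFAIP3), chr11:102317264-102317363 on the forward strand (BIRC3), chr4:102501259-102501329 on the forward strand (NFKB1), chr14:102777349-102777448 on the forward strand (TRAF3).
NFKBIA: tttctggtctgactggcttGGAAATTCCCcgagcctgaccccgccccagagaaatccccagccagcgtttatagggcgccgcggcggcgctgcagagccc
TNFAIP3: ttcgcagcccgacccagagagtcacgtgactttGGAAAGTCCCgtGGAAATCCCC
BIRC3: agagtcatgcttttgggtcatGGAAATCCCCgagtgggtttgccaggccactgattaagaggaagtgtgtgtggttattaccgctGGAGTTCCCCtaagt
NFKB1: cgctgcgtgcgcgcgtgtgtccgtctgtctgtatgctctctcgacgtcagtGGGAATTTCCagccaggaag
TRAF3: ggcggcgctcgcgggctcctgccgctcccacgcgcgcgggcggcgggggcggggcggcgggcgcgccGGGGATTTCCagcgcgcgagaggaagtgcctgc

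The libraries held 1666325 to 5761682 counts in AMO1 (median 3009496) and 2487872 to 6596543 in L363-CFZr (median 3562784.5), and the 10 genes had 32 to 2709 counts in a library (median 258). All 8 plasma cell markers averaged over 1 CPM in both lines, with summed levels of 2500 to 5260 CPM in AMO1 and 2340 to 3770 CPM in L363-CFZr. Summed T cell markers reached at most 4.41 CPM in AMO1 and 0.331 CPM in L363-CFZr (where CD3D was at 0 in every library), summed myeloid markers 3.65 and 1.63 CPM, summed mature B cell markers 2.55 and 2.62 CPM, and summed epithelial or stromal markers 12.4 and 6.73 CPM. In bulk RNA, fewer cells of a type and less RNA per cell cannot be told apart. By their numbers the libraries fall into 3 sets of 22. AMO1 at 6 h lies within set 1 and L363-CFZr at 24 h within set 3, whereas at 24 h in AMO1 the DMSO libraries and 1 CFZ library are in set 1 and all others in set 2. At 6 h in L363-CFZr the HFG and halofuginol libraries (set 3) and the DMSO and NCP26 libraries (set 2) are in different sets. By the paper's methods, which there name AMO1 cells alone, samples taken at 6 h were frozen overnight before RNA extraction. Those at 24 h were kept on ice, so handling and time cannot be told apart.

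Levels below are CPM (counts scaled to a common library total) under 1 TMM scaling of all libraries, given for replicates 1, 2 and 3. Differences are log2 fold changes ± SE from edgeR's quasi-likelihood fit of the compared libraries alone, with Benjamini-Hochberg adjusted p over all genes of that fit and a threshold of 0.05. Intervals are 95% intervals of a single gene, not adjusted for the number of genes. All treatments of a line and time were compared with the same 3 DMSO libraries. The labels describe the replicates only as made in triplicate, so p measures the spread between these samples, which may be technical. A permutation of 3 against 3 libraries cannot give an exact p below 0.1, so none was used for single genes.

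In DMSO, the order of the genes by CPM per kb of canonical transcript had TNFAIP3 as the first gene in AMO1 and the fifth in L363-CFZr at 6 h. In AMO1 at 6 h TNFAIP3 (78.2 ± 2.83, SD, n = 3), which encodes the ubiquitin-editing enzyme A20 that shuts off the kinase complex, and NFKB2 (74.7 ± 4.79) led, with overlapping ranges. BIRC3, which encodes cIAP2, followed at 52.9 ± 7.16. NFKBIA (31.2 ± 1.21) overlapped RELA (27.4 ± 3.20), and RELA overlapped RELB (26.6 ± 2.15). NFKB1 (21.8 ± 1.21) stood between these and the lowest, NFKBIE (11.8 ± 0.914), TRAF1 (9.44 ± 1.69) and TRAF3 (8.08 ± 0.186), where each overlapped its neighbour. In L363-CFZr at 6 h NFKB2 (83.3 ± 3.08) and NFKBIA (52.0 ± 4.31) led without overlap. RELA, BIRC3, TNFAIP3 and RELB lay between 25.5 and 38.7 CPM per kb, with neighbours in this list overlapping. TRAF1, NFKBIE and NFKB1 lay between 12.2 and 16.7, and TRAF3 was lowest at 2.88 ± 0.469. By 24 h TRAF1 in L363-CFZr DMSO had moved to rank 2 at 50.3 ± 11.7 CPM per kb, overlapping BIRC3 (41 ± 2.95).

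**Figure D1:**
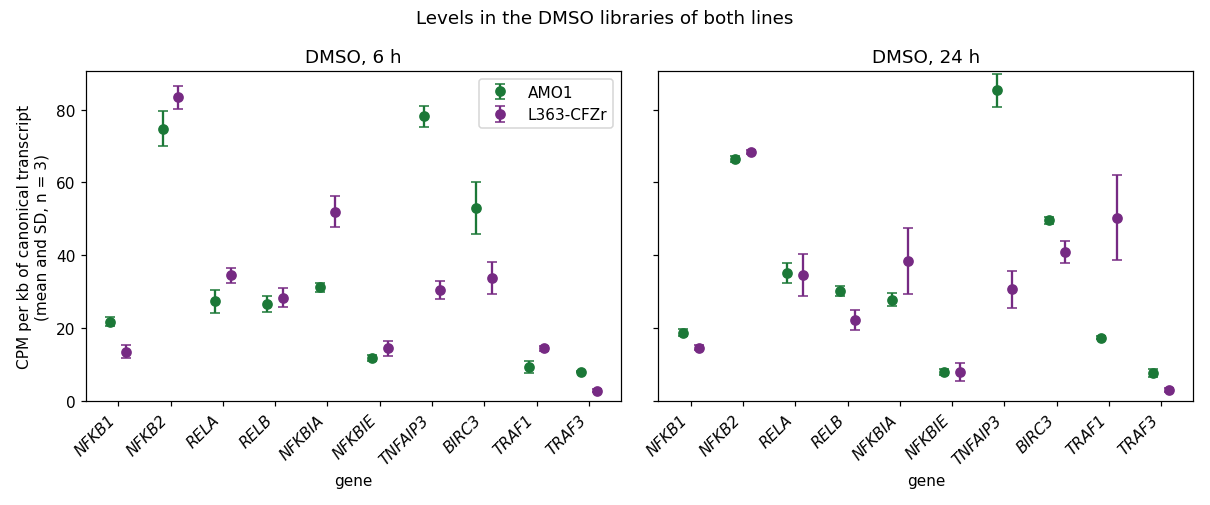
Mean CPM per kb of canonical transcript (vertical axis, from 0; bars, SD of 3 libraries) of the 10 genes in DMSO libraries of AMO1 (green) and L363-CFZr (purple) at 6 h and 24 h. TNFAIP3 stands at 78.2 in AMO1 and 30.5 in L363-CFZr at 6 h, and TRAF1 in L363-CFZr at 14.6 at 6 h and 50.3 at 24 h.

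Of the 10 genes, 7 differed between the lines in DMSO at 6 h, where 60.2% of all tested genes did, and 5 at 24 h, where 39.9% did. TRAF3 had 63.1, 61.6 and 64.5 CPM in AMO1 and 23.4, 18.4 and 25.6 CPM in L363-CFZr at 6 h (-1.49 ± 0.13, adjusted p = 3.09e-09), and the difference was -1.26 ± 0.18, adjusted p = 0.0016 at 24 h. TNFAIP3 had 355, 379.7 and 359 CPM in AMO1 and 133, 156 and 138 CPM in L363-CFZr (-1.38 ± 0.077, adjusted p = 3.5e-12), and -1.47 ± 0.16, adjusted p = 0.000374 at 24 h. For both genes every AMO1 library lay above every L363-CFZr library at both times. TRAF1, an adaptor of TNF receptors, was higher in L363-CFZr (0.61 ± 0.12, adjusted p = 0.000214 at 6 h; 1.53 ± 0.18, adjusted p = 0.000647 at 24 h). NFKB1, which encodes p105 and p50, was lower in L363-CFZr (-0.69 ± 0.10, adjusted p = 9.59e-06 and -0.35 ± 0.11, adjusted p = 0.034). At 6 h alone, NFKBIA (0.72) and RELA (0.31) passed as higher and BIRC3 (-0.67) as lower, and at 24 h alone RELB (-0.43) passed as lower. The call of RELA was lost without AMO1 DMSO replicate 3 (0.24, adjusted p = 0.0615), and those of NFKB1 and RELB at 24 h in 5 and 4 of the 6 fits that left out 1 library (adjusted p 0.0695 to 0.144 and 0.0771 to 0.106). At 24 h 3 genes differed without any 1 AMO1 library or without L363-CFZr replicate 3. The lines lie in different library sets at both times, so these fits cannot tell line and set apart. With a term for the set, fitted over all groups of both lines, RELA at 6 h became -0.085 (edgeR, adjusted p = 0.774). That term rests on few libraries, since sets 1 and 2 meet only in the AMO1 CFZ group at 24 h.

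In AMO1 at 6 h, both ProRS inhibitors upregulated RELB and NFKB1, raised the inhibitor genes NFKBIA and NFKBIE, and lowered TNFAIP3 and TRAF3, of which NFKBIE with NCP26 and TRAF3 with both held least well. NCP26 raised 4 of the 10 genes and lowered 2, against 18.1% of all tested genes higher and 19.2% lower, and HFG raised 6 and lowered 2, against 27.7% and 26.6%. The median log2 fold change of the 10 was 0.038 with NCP26 and 0.26 with HFG, against -0.011 and 0.013 over all tested genes. Of the 8 plasma cell markers 1 was higher and 5 lower with each compound (medians -0.51 and -0.55), and their part in the results below was not tested. RELB, the transactivating partner of p52, had 55.9, 65.5 and 59.2 CPM with DMSO, 121, 124 and 118 CPM with NCP26 and 134, 132 and 137 CPM with HFG. Every treated library lay well above every control, at 1.02 ± 0.10, adjusted p = 1.76e-05 with NCP26 and 1.20 ± 0.086, adjusted p = 2.12e-08 with HFG. NFKB1 had 85.3, 94.2 and 86.1 CPM with DMSO, 133, 150.0 and 140.2 CPM with NCP26 and 166, 150.4 and 155 CPM with HFG. The groups did not overlap, and the changes were 0.68 ± 0.098, adjusted p = 0.000232 and 0.86 ± 0.082, adjusted p = 4.11e-07. NFKB2 rose with HFG (0.27 ± 0.073, adjusted p = 0.00607) and was 0.013 (95% interval -0.22 to 0.25) with NCP26. With an offset for the GC content of the transcripts NFKB2 passed with both (0.27, adjusted p = 0.0485, with NCP26 and 0.49 with HFG). Without the offset, the HFG call was lost without AMO1 DMSO replicate 2 (0.21, adjusted p = 0.0538). RELA, the transactivating partner of p50, passed with neither compound (-0.28, adjusted p = 0.0861, and -0.23, adjusted p = 0.0728).

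NFKBIA, which encodes IκBα, had 46.6, 49 and 50.3 CPM with DMSO, 65.8, 58.6 and 68.6 CPM with NCP26 and 76.8, 67.8 and 62.8 CPM with HFG (0.41 ± 0.11, adjusted p = 0.0113 and 0.53 ± 0.10, adjusted p = 0.000449). NFKBIE, which encodes IκBε, had 30.1, 27.3 and 25.9 CPM with DMSO, 36, 34.3 and 39.4 CPM with NCP26 and 39.5, 41.1 and 36.8 CPM with HFG (0.40 ± 0.14, adjusted p = 0.0327 and 0.52 ± 0.12, adjusted p = 0.00173). All treated libraries exceeded all controls for both inhibitors. The NFKBIA promoter is printed above with 1 kappa-B match. With NCP26 the call of NFKBIA was lost without AMO1 DMSO replicate 1 (0.38, adjusted p = 0.0548) and that of NFKBIE in 3 of 6 fits (adjusted p 0.0888 to 0.106 without DMSO replicate 2, DMSO replicate 3 or NCP26 replicate 3). TNFAIP3 went the other way, with 355, 379.7 and 359 CPM in DMSO, 171, 212 and 207 CPM with NCP26 and 166, 171 and 186 CPM with HFG. The highest treated library held 212 CPM and the lowest control 355 CPM, and the changes were -0.88 ± 0.11, adjusted p = 7.34e-05 and -1.02 ± 0.073, adjusted p = 1.99e-08. The promoter printed for TNFAIP3 holds 2 matches to the motif.

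BIRC3 had 339.9, 331 and 421 CPM with DMSO and 451, 403 and 424 CPM with HFG, where DMSO replicate 3 lay within the HFG range. It passed with HFG (0.26 ± 0.088, adjusted p = 0.019), but the call was lost in 4 of 6 fits that left out 1 library (adjusted p 0.0568 to 0.126). With an offset for GC content, which is 35.84% for its transcripts, the value was -0.12. BIRC3 was 0.199 with NCP22 and 0.155 with halofuginol without a call, and passed with both without DMSO replicate 3 (0.32 and 0.28). Log2 fold changes and GC content correlated across genes at r = -0.372 with NCP26 and -0.32 with HFG. Against the same DMSO libraries r was -0.51 with NCP22 and -0.469 with halofuginol. TRAF3 had 63.1, 61.6 and 64.5 CPM with DMSO, 45.8, 46.6 and 49.1 CPM with NCP26 and 48, 44.1 and 49.8 CPM with HFG, without overlap (-0.41 ± 0.10, adjusted p = 0.00835 and -0.37 ± 0.096, adjusted p = 0.00371). With the GC offset TRAF3 no longer passed (-0.24 and -0.22). TRAF1 passed with neither compound (-0.037 and 0.18).

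**Figure D2:**
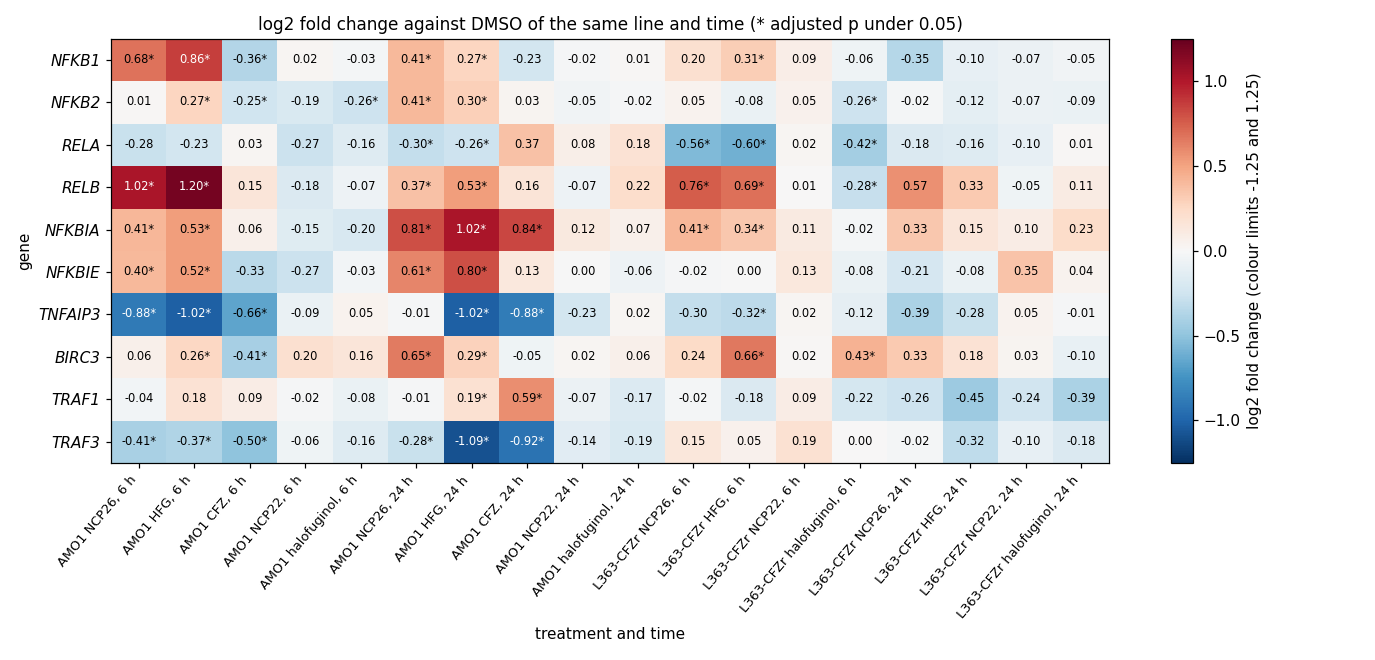
Log2 fold change of the 10 genes (rows) in each of the 18 comparisons of a treatment with DMSO of the same line and time (columns), with asterisks where the adjusted p is under 0.05. Among AMO1 comparisons RELB is highest at 6 h with HFG (1.20), NFKBIA at 24 h with HFG (1.02), and TRAF3 lowest at 24 h with HFG (-1.09).

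At 24 h in AMO1, RELB rose less than at 6 h with both compounds, NFKB1 rose less and NFKBIA more with HFG, and TNFAIP3 separated the compounds. NCP26 raised 6 genes and lowered 2 (29.8% and 30.9% of all tested genes), and HFG raised 7 and lowered 3 (28.5% and 30.5%). The medians of the 10 were 0.39 and 0.28, against 0.0075 and -0.0019 over all tested genes. RELB had 71.2, 68 and 65.5 CPM with DMSO, 95.2, 80.2 and 87.4 CPM with NCP26 and 110.4, 92.7 and 93.5 CPM with HFG (0.37 ± 0.081, adjusted p = 0.000274 and 0.53 ± 0.086, adjusted p = 3.68e-05). NFKB1 rose by 0.41 and 0.27 on the log2 scale (adjusted p = 4.22e-05 and 0.00788). NFKB2, which encodes p100 and p52, had 198, 202 and 200.5 CPM with DMSO, 261, 264 and 273 CPM with NCP26 and 228, 267 and 245 CPM with HFG (0.41 ± 0.051, adjusted p = 5.14e-08 and 0.30 ± 0.062, adjusted p = 0.000453). RELA had 94.6, 81.3 and 89.4 CPM with DMSO, 75.8, 64.6 and 74.7 CPM with NCP26 and 63.6, 74.9 and 80.2 CPM with HFG, every treated library below every control (-0.30 ± 0.083, adjusted p = 0.00283 and -0.26 ± 0.091, adjusted p = 0.0214). Neither RELA call remained with the GC offset (-0.14 and -0.15), and that of HFG was lost in 4 of 6 fits without 1 library (adjusted p 0.0511 to 0.12).

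NFKBIA had 46.2, 41.1 and 43.1 CPM with DMSO, 83.3, 75.3 and 69.2 CPM with NCP26 and 96.3, 91.5 and 78.3 CPM with HFG. Among the 10 genes this was the largest rise at this time with either compound (0.81 ± 0.091, adjusted p = 5.95e-09 and 1.02 ± 0.099, adjusted p = 6.76e-08). NFKBIE rose by 0.61 and 0.80 (adjusted p = 0.00034 and 0.000125). TNFAIP3 had 391, 421 and 382 CPM with DMSO, 410.1, 394 and 381 CPM with NCP26 and 187, 208 and 192 CPM with HFG. The NCP26 libraries overlapped the controls (-0.015, 95% interval -0.11 to 0.082), whereas every HFG library held at most 208 CPM (-1.02 ± 0.059, adjusted p = 4.15e-11). BIRC3 had 342, 348 and 334 CPM with DMSO, 559, 536 and 519 CPM with NCP26 and 404, 431 and 412 CPM with HFG (0.65 ± 0.045, adjusted p = 1.02e-13 and 0.29 ± 0.049, adjusted p = 6.31e-05), with no overlap among the 3 groups. TRAF3 had 68.2, 50.8 and 59.5 CPM with DMSO, 46, 51.9 and 47.4 CPM with NCP26 and 28.7, 28.1 and 26.5 CPM with HFG (-0.28 ± 0.10, adjusted p = 0.017 and -1.09 ± 0.12, adjusted p = 5.71e-07). One NCP26 library overlapped the controls, and that call was lost with the GC offset (-0.19) and in 4 of 6 fits without 1 library (adjusted p 0.0538 to 0.0979). TRAF1 passed with HFG alone (0.19 ± 0.078, adjusted p = 0.0416), and was lost in 5 of 6 such fits (adjusted p 0.0647 to 0.163).

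The treated and DMSO libraries of AMO1 at 24 h lie in different library sets, and a term for the set, which rests on CFZ replicate 1 alone, left 5 of the 8 NCP26 calls and 5 of the 10 HFG calls. It took away NFKB1 (0.36 and 0.23), NFKB2 (0.26 and 0.16) and NFKBIE (0.46 and 0.66) with both compounds, and BIRC3 (0.26) and TRAF1 (0.056) with HFG. Among calls that stayed, RELA became -0.74 with NCP26 and -0.70 with HFG and TRAF3 -0.65 with NCP26. TNFAIP3 with NCP26 was -0.36 (adjusted p = 0.0823) with this term. For these genes CFZ replicate 2, in set 2, stood above CFZ replicates 1 (set 1) and 3 (set 2). RELA held 139.9 against 91.8 and 105.8 CPM, TRAF3 40.2 against 26.3 and 26.5 CPM, and TNFAIP3 252.9 against 182.5 and 204.3 CPM. The part of CFZ replicate 2 in the values with the term was not tested. The NCP22 and halofuginol libraries at 24 h are in set 2 as well and were compared with the same DMSO libraries. There, without the term, 0 of the 10 genes passed with either, and 0% and 0.183% of all tested genes. The cause of the lost calls was not tested.

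The change between the times was tested as an interaction. With NCP26, 4 of the 10 genes differed (17.5% of all tested genes), namely RELB (-0.66 ± 0.12, adjusted p = 0.00117), NFKB2 (0.39 ± 0.11, adjusted p = 0.0241), TNFAIP3 (0.86 ± 0.12, adjusted p = 6.38e-05) and BIRC3 (0.58 ± 0.12, adjusted p = 0.00215). With HFG, 4 differed (39.6%), namely NFKB1 (-0.56 ± 0.11, adjusted p = 0.000522), RELB (-0.64 ± 0.12, adjusted p = 0.00027), NFKBIA (0.53 ± 0.14, adjusted p = 0.00597) and TRAF3 (-0.69 ± 0.16, adjusted p = 0.0017). The RELB response thus fell between 6 h and 24 h with both compounds, while the TNFAIP3 response changed by 0.031 (95% interval -0.16 to 0.22) with HFG. The NFKB2 difference was lost in 5 of 12 fits without 1 library (adjusted p 0.0501 to 0.0645). With the set term, BIRC3 was the member that still passed with NCP26, where RELB was -0.57 and TNFAIP3 0.53.

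NCP26 and HFG were compared directly at the same dose, as the 3 pairs per line and time (NCP26 with HFG, NCP26 with NCP22, HFG with halofuginol) gave 12 comparisons of compounds, each adjusted over its own genes. At 6 h in AMO1 0 of the 10 genes differed by edgeR (0.260% of all tested genes; 1 member at an unadjusted p under 0.05 and 0 by DESeq2). The differences there ran from -0.23 (NFKB2, interval -0.44 to -0.017) to 0.17 (TNFAIP3, interval -0.059 to 0.39), and RELB differed by -0.16 (interval -0.34 to 0.021). At 24 h 3 of the 10 differed (44.9%), all higher with NCP26. TNFAIP3 held 381 to 410 CPM with NCP26 and 187 to 208 CPM with HFG, at 1.00 ± 0.055, adjusted p = 8.3e-11. TRAF3 (0.79 ± 0.12, adjusted p = 1.92e-05) and BIRC3 (0.36 ± 0.046, adjusted p = 4.75e-06) also had no overlap between the compounds. These libraries lie within set 2, and the 3 calls remained without each library in turn and with the GC offset (0.97, 0.80 and 0.32). The other 7 genes differed by -0.22 to 0.12, with NFKBIA (interval -0.42 to -0.025) and TRAF1 (interval -0.42 to -0.018) nearest to passing.

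In L363-CFZr 0 of the 10 genes differed between NCP26 and HFG by edgeR at 6 h (0% of all tested genes; 1 member at an unadjusted p under 0.05 and 0 by DESeq2) and 0 at 24 h (12.9%; 3 members at an unadjusted p under 0.05 and 0 by DESeq2). Without NCP26 replicate 2 at 6 h, and without NCP26 replicate 1 at 24 h, 1 gene differed. At 24 h, all within set 3, TNFAIP3 had 108, 111 and 105 CPM with NCP26 and 116, 119 and 118 CPM with HFG, a difference of -0.12 (interval -0.26 to 0.028). BIRC3 at 6 h was -0.42 (interval -0.64 to -0.20, adjusted p = 0.42), where the groups did not overlap but lie in different sets and the log2 fold changes of all genes followed GC content at r = 0.506.

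**Figure D3:**
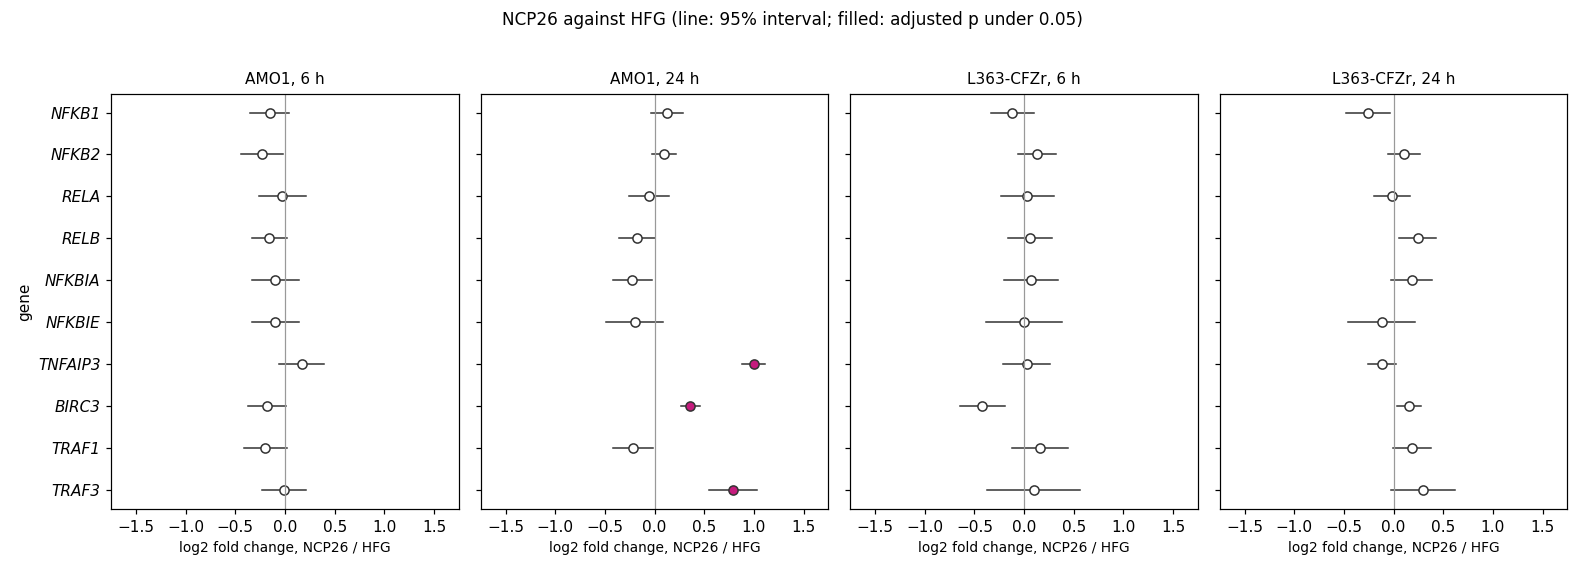
Log2 fold change of NCP26 over HFG (horizontal axis; line, 95% interval; filled points, adjusted p under 0.05) for the 10 genes (vertical axis) in both lines at 6 h and 24 h. TNFAIP3 (1.00), TRAF3 (0.79) and BIRC3 (0.36) in AMO1 at 24 h are the filled points.

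CFZ, which blocks the proteasome that degrades the IκB proteins, lowered 5 of the 10 genes in AMO1 at 6 h, and none passed as higher (12.8% of all tested genes were lower and 14.1% higher; median -0.29 against -0.0062 over all genes). TNFAIP3 had 246, 236 and 214 CPM with CFZ, all below the lowest control at 355 CPM (-0.66 ± 0.070, adjusted p = 2.68e-07). TRAF3 (-0.50 ± 0.10, adjusted p = 0.000746), BIRC3 (-0.41 ± 0.084, adjusted p = 0.000724) and NFKB1 (-0.36 ± 0.091, adjusted p = 0.00455) were also lower without overlap. NFKB2 passed as well (-0.25 ± 0.071, adjusted p = 0.0123) but was lost in 3 of 6 fits without 1 library (adjusted p 0.053 to 0.0695). RELB was 0.15 (interval -0.054 to 0.35) and NFKBIA 0.063 (interval -0.18 to 0.30). At 24 h 2 genes were higher and 2 lower (13.1% and 14%; median 0.081 against 0.015). NFKBIA had 84.1, 60.3 and 85.6 CPM with CFZ, each above every control, the highest of which held 46.2 CPM (0.84 ± 0.15, adjusted p = 0.00432). TRAF1 had 106, 123 and 107 CPM with CFZ and 77.8, 75.6 and 74.2 CPM with DMSO (0.59 ± 0.11, adjusted p = 0.00623). TNFAIP3 had 182, 253 and 204 CPM (-0.88 ± 0.15, adjusted p = 0.00338) and TRAF3 26.3, 40.2 and 26.5 CPM (-0.92 ± 0.20, adjusted p = 0.0125), where CFZ replicate 2 stood above the other 2 libraries for both genes. The TRAF3 call was lost without DMSO replicate 1 or 3 (-0.82, adjusted p = 0.0544 and -0.92, adjusted p = 0.0539). Between the times 1 of the 10 genes differed (19.6%), namely NFKBIA (0.77 ± 0.20, adjusted p = 0.0147). Without CFZ 24 h replicate 2, 5 genes differed, and 2 did without DMSO 6 h replicate 3.

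NCP22 and halofuginol at the same dose moved few of the 10 genes in AMO1. At 6 h NCP22 changed 0 by edgeR (13.5% of all tested genes; 3 members at an unadjusted p under 0.05 and 0 by DESeq2; 2 without DMSO replicate 3), and halofuginol changed 1 (3.62%), NFKB2 (-0.26 ± 0.068, adjusted p = 0.0351), a call lost in 4 of 6 fits without 1 library (adjusted p 0.106 to 0.179) and with the GC offset, while 2 genes passed without DMSO replicate 3. At 24 h NCP22 changed 0 by edgeR (0%; 1 member at an unadjusted p under 0.05 and 0 by DESeq2) and halofuginol 0 (0.183%; 2 and 0). NCP26 differed from NCP22 in 6 of the 10 genes at 6 h (24.7%) and 8 at 24 h (52.0%). At 6 h RELB (1.23 ± 0.095, adjusted p = 5.07e-06), NFKBIE (0.70 ± 0.12, adjusted p = 0.00168), NFKB1 (0.69 ± 0.088, adjusted p = 0.000227) and NFKBIA (0.59 ± 0.10, adjusted p = 0.00193) were higher with NCP26. TNFAIP3 (-0.76 ± 0.10, adjusted p = 0.00027) and TRAF3 (-0.32 ± 0.10, adjusted p = 0.0352) were lower, the latter losing its call in 5 of 6 fits without 1 library (adjusted p 0.0528 to 0.112). At 24 h, within set 2, NFKBIA (0.71 ± 0.10, adjusted p = 7.61e-05), BIRC3 (0.65 ± 0.063, adjusted p = 1.52e-06), NFKBIE (0.64 ± 0.16, adjusted p = 0.00468), NFKB2 (0.48 ± 0.064, adjusted p = 3.04e-05), RELB (0.45 ± 0.10, adjusted p = 0.00205), NFKB1 (0.44 ± 0.083, adjusted p = 0.00051) and TNFAIP3 (0.24 ± 0.064, adjusted p = 0.00603) were higher with NCP26. TNFAIP3 had 316.1 to 347.4 CPM with NCP22, below every DMSO library (381.7 to 421.2 CPM, set 1), without a call against DMSO. The NCP26 libraries (381 to 410.1 CPM) and the halofuginol libraries (376.7 to 430.1 CPM) overlapped DMSO. RELA (-0.35 ± 0.086, adjusted p = 0.00342) was lower with NCP26 than with NCP22, and -0.20 without a call under the GC offset. TRAF3 (-0.13, interval -0.34 to 0.084) and TRAF1 (0.079, interval -0.14 to 0.30) did not pass.

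Halofuginol is HFG with its ketone reduced to an alcohol. HFG differed from it in 7 of the 10 genes at 6 h (51.7%) and in all 10 at 24 h (56.6%). At 6 h RELB had 53.7, 57.4 and 60.2 CPM with halofuginol, overlapping the controls, against 132 to 137 CPM with HFG (1.26 ± 0.072, adjusted p = 2.92e-10). TNFAIP3 had 375, 359 and 389 CPM with halofuginol, each above the highest HFG library at 186 CPM (-1.07 ± 0.060, adjusted p = 1.9e-10). NFKB1 (0.88), NFKBIA (0.72), NFKBIE (0.55), NFKB2 (0.53) and TRAF1 (0.27) were higher with HFG, and TRAF1 lost its call in 4 of 6 fits without 1 library (adjusted p 0.0585 to 0.132). RELA (-0.072, interval -0.26 to 0.11), BIRC3 (0.10, interval -0.008 to 0.21) and TRAF3 (-0.21, interval -0.41 to -0.021) did not pass. At 24 h, within set 2, TNFAIP3 (-1.04 ± 0.070, adjusted p = 6.98e-10), TRAF3 (-0.88 ± 0.12, adjusted p = 5.82e-06) and RELA (-0.42 ± 0.095, adjusted p = 0.00103) were lower with HFG and the other 7 higher, led by NFKBIA (0.96 ± 0.10, adjusted p = 3.58e-07) and NFKBIE (0.88 ± 0.15, adjusted p = 9.09e-05). NFKB1 (0.27) lost its call in 3 of 6 fits without 1 library (adjusted p 0.0729 to 0.0805), and BIRC3 with the GC offset (0.074, from 0.23).

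**Figure D4:**
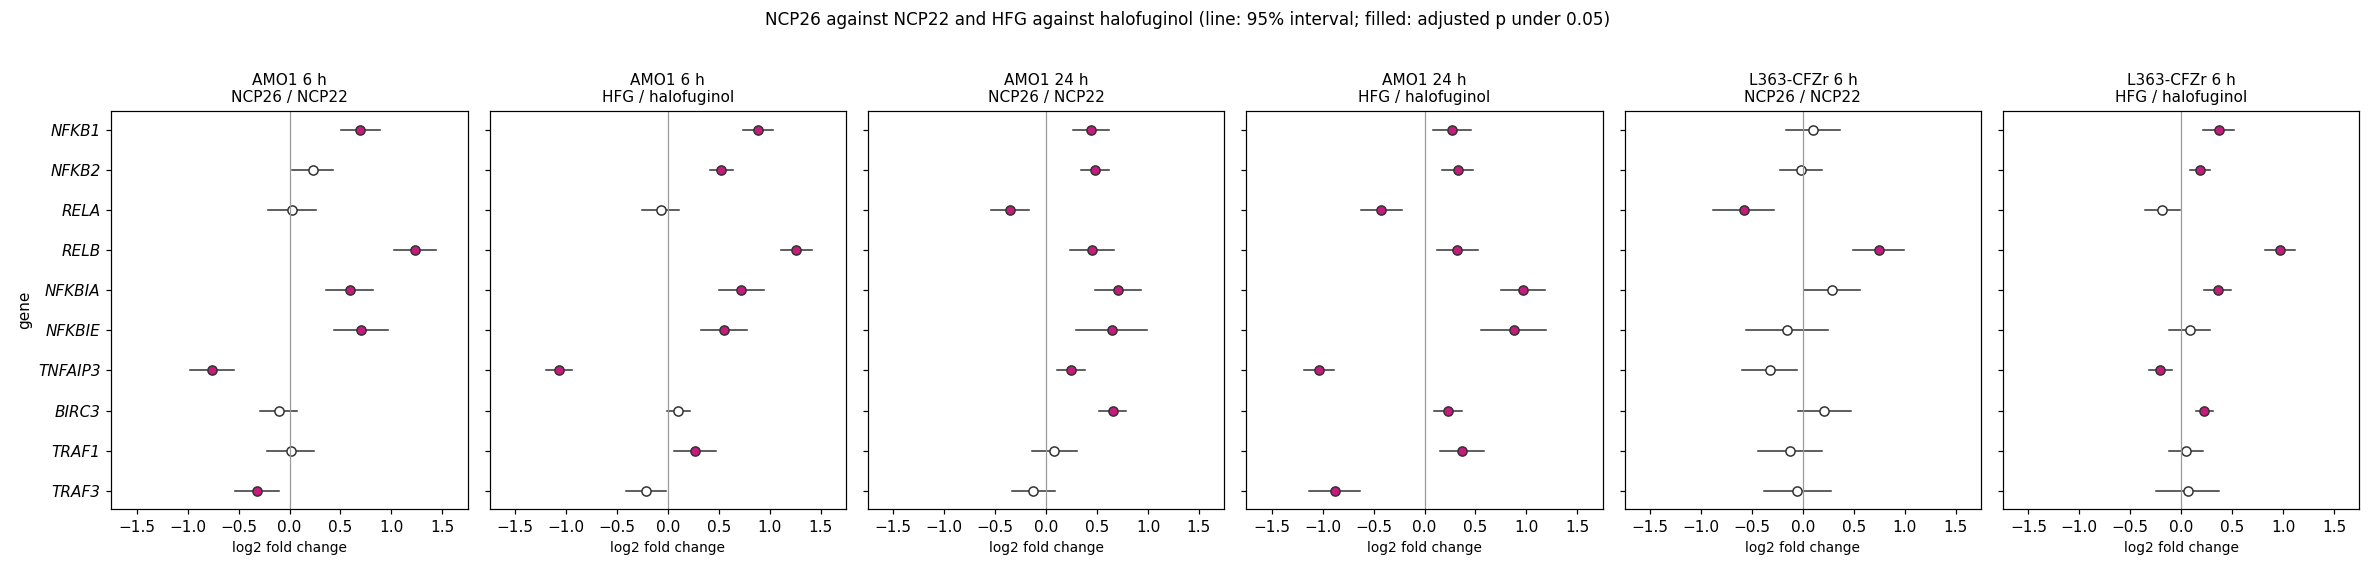
Log2 fold change of NCP26 over NCP22 and of HFG over halofuginol (horizontal axis; line, 95% interval; filled points, adjusted p under 0.05) for the 10 genes (vertical axis) in AMO1 at 6 h and 24 h and L363-CFZr at 6 h. RELB is the rightmost gene in both AMO1 panels at 6 h (1.23 and 1.26) and in both L363-CFZr panels (0.74 and 0.97).

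In L363-CFZr at 6 h, RELB and NFKBIA rose and RELA fell with both ProRS inhibitors. With NCP26 the calls of NFKBIA and RELA, and with HFG those of RELB and NFKBIA, were lost in some fits given below. NCP26 changed 3 of the 10 genes (18.8% of all tested genes; median 0.096 against 0.013) and HFG 6 (54.5%; median 0.025 against -0.0022). Of the plasma cell markers 1 was higher and 2 lower with NCP26 and 1 higher and 6 lower with HFG. RELB had 65.1, 57.6 and 69.4 CPM with DMSO, 106, 116 and 100.5 CPM with NCP26 and 94.2, 111 and 101 CPM with HFG, with every treated library above every control (0.76 ± 0.11, adjusted p = 0.00141 and 0.69 ± 0.088, adjusted p = 8.08e-07). RELA had 85.5, 82.5 and 92.6 CPM with DMSO, 64.1, 51 and 59.8 CPM with NCP26 and 53.5, 63.7 and 53.3 CPM with HFG, without overlap (-0.56 ± 0.12, adjusted p = 0.00954 and -0.60 ± 0.091, adjusted p = 6.96e-06). NFKBIA had 74.7, 80.5 and 88.1 CPM with DMSO, 94.7, 127 and 97.6 CPM with NCP26 and 102, 98.7 and 101 CPM with HFG (0.41 ± 0.13, adjusted p = 0.0484 and 0.34 ± 0.079, adjusted p = 0.000946). NFKBIE, raised in AMO1, was -0.019 (interval -0.43 to 0.39) with NCP26. With HFG, BIRC3 (0.66 ± 0.073, adjusted p = 8.49e-08) and NFKB1 (0.31 ± 0.097, adjusted p = 0.00989) also rose and TNFAIP3 fell (-0.32 ± 0.075, adjusted p = 0.000818). BIRC3 had 223, 266 and 209 CPM with DMSO and 358, 367 and 348 CPM with HFG.

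The NCP26 comparison at 6 h lies within set 2. Its count was 1 without DMSO replicate 3, where RELA was -0.52, adjusted p = 0.0585, and NFKBIA was lost in 4 of 6 such fits (adjusted p 0.0623 to 0.188). RELA with NCP26 was -0.36 with the GC offset and did not pass. HFG and DMSO are in different sets, log2 fold changes followed GC content at r = -0.568, and with a set term that rests on NCP22 replicate 3 the calls of RELA (-0.93) and BIRC3 (0.78) were left of 6. With the GC offset BIRC3 with HFG was 0.15 and RELA -0.28, both still past the threshold. RELB with HFG was 1.06 with the GC offset and 0.52 with the set term, and NFKBIA 0.53 with the GC offset. NFKB2 and NFKBIE with HFG, at -0.080 and -0.0045 without a call, passed as higher with the GC offset (0.27, adjusted p = 0.000913 and 0.34, adjusted p = 0.0342). NFKB1 with HFG was lost without HFG replicate 3 (0.27, adjusted p = 0.0513).

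The related compounds at 6 h in L363-CFZr gave 0 changed genes with NCP22 by edgeR (0% of all tested genes; 0 members at an unadjusted p under 0.05 and 0 by DESeq2) and 4 with halofuginol (25.8%). These 4, NFKB2 (-0.26 ± 0.055, adjusted p = 0.00286), RELA (-0.42 ± 0.081, adjusted p = 0.00145), RELB (-0.28 ± 0.088, adjusted p = 0.0233) and BIRC3 (0.43 ± 0.073, adjusted p = 0.000682), were all lost with the GC offset (-0.026, -0.21, -0.025 and 0.093), where log2 fold changes followed GC content at r = -0.717, and with the set term. HFG and halofuginol, both in set 3, differed in 6 genes (47.3%). RELB had 55.3, 50.7 and 52.6 CPM with halofuginol against 94.2 to 111 CPM with HFG (0.97 ± 0.072, adjusted p = 4.36e-12). NFKB1 (0.37 ± 0.073, adjusted p = 0.000131), NFKBIA (0.36 ± 0.064, adjusted p = 3.13e-05), BIRC3 (0.23 ± 0.042, adjusted p = 4.54e-05) and NFKB2 (0.18 ± 0.049, adjusted p = 0.00302) were higher with HFG and TNFAIP3 (-0.21 ± 0.057, adjusted p = 0.00344) lower, and BIRC3 was lost with the GC offset (0.057). When all groups of the line shared 1 estimate of the spread, RELB (0.95) and NFKB1 (0.33) were left. RELA, lower than DMSO with both, differed by -0.18 between HFG and halofuginol without a call. It passed without HFG replicate 2 (-0.26, adjusted p = 0.014) and without halofuginol replicate 3 (-0.23, adjusted p = 0.0288). NCP26 and NCP22 differed in 2 genes (20.4%), RELB (0.74 ± 0.12, adjusted p = 0.00152) and RELA (-0.58 ± 0.14, adjusted p = 0.0128), and the RELA call was lost without NCP22 replicate 3, the library in set 3 (-0.46, adjusted p = 0.0842).

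At 24 h in L363-CFZr none of the 10 genes passed against DMSO by edgeR with NCP26 (7.09% of all tested genes; 4 members at an unadjusted p under 0.05 and 1, RELB, by DESeq2), HFG (1.17%; 2 and 0), NCP22 (0%; 0 and 0) or halofuginol (0%; 0 and 0). RELB had 57.5, 46.4 and 47.2 CPM with DMSO and 79.8, 71.5 and 71.7 CPM with NCP26, without overlap (0.57 ± 0.14, adjusted p = 0.0518). DMSO replicate 2 stood apart, with TRAF1 at 278 CPM against 190 and 189 CPM, NFKBIA at 43.7 CPM against 67.2 and 68.8 CPM, and NFKBIE at 12.3 CPM against 23 and 21.1 CPM. Without it 4 genes passed with NCP26 and 2 with HFG. NCP26 differed from NCP22 in 4 genes (34.1%), namely RELB (0.61 ± 0.096, adjusted p = 0.000231), TNFAIP3 (-0.45 ± 0.087, adjusted p = 0.00118), NFKBIE (-0.56 ± 0.14, adjusted p = 0.00659) and BIRC3 (0.29 ± 0.077, adjusted p = 0.01), the last lost in 2 of 6 fits without 1 library (adjusted p 0.0525 and 0.0577). HFG differed from halofuginol in 2 (21.9%), TNFAIP3 (-0.27 ± 0.064, adjusted p = 0.00655) and BIRC3 (0.27 ± 0.058, adjusted p = 0.00346).

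The difference of each response between the lines was tested as an interaction. With NCP26 0 of the 10 genes differed at 6 h by edgeR (2.71% of all tested genes; 3 members at an unadjusted p under 0.05 and 1, TNFAIP3, by DESeq2; 1 without L363-CFZr NCP26 replicate 2), and 2 differed at 24 h (5.41%). With HFG 6 differed at 6 h (20.7%) and 6 at 24 h (16.9%). The fall of TNFAIP3 with HFG was smaller in L363-CFZr at both times (0.70 ± 0.10, adjusted p = 4.51e-05 at 6 h and 0.74 ± 0.17, adjusted p = 0.00938 at 24 h). RELB (-0.50 ± 0.12, adjusted p = 0.00578) and NFKB1 (-0.54 ± 0.12, adjusted p = 0.00279) had a smaller HFG response in L363-CFZr at 6 h. NFKB2 (-0.34) and NFKBIE (-0.52) were also lower and BIRC3 higher (0.40), and of these NFKBIE and BIRC3 were lost in 6 and 7 of 12 fits without 1 library (adjusted p 0.0527 to 0.0752 and 0.0559 to 0.0862). Against DMSO in L363-CFZr, NFKB2 and NFKBIE passed as higher with HFG at 6 h under the GC offset (0.27 and 0.34). At 24 h NFKBIA (-0.89 ± 0.22, adjusted p = 0.0156) had the smaller response in L363-CFZr, and NFKBIE (-0.92), TRAF3 (0.77), TRAF1 (-0.64) and NFKB2 (-0.43) passed but were lost in 7 to 10 of 12 such fits (adjusted p 0.0506 to 0.109). With NCP26 at 24 h NFKB1 (-0.78 ± 0.15, adjusted p = 0.00955) and NFKB2 (-0.45 ± 0.11, adjusted p = 0.036) passed, and 6 genes did without L363-CFZr DMSO 24 h replicate 2, while NFKB2 was lost in 11 of 12 such fits (adjusted p 0.0567 to 0.0961). In each of these comparisons with a call, treated and DMSO libraries of 1 line lie in different library sets. That line is L363-CFZr for HFG at 6 h and AMO1 for both compounds at 24 h, so line difference and set go together there. For NCP26 at 6 h they share a set within each line. With the set term the HFG count at 24 h went from 6 to 3 and that of NCP26 from 2 to 1.

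Across the 22 groups the lowest and highest group means of a gene differed from 1.43-fold (NFKB2) to 2.91-fold (TRAF1) in AMO1 and from 1.29-fold (TRAF3) to 4.01-fold (TRAF1) in L363-CFZr. RELB ran from 52.6 ± 3.99 CPM (SD, n = 3) with NCP22 to 134 ± 2.31 CPM with HFG in AMO1, both at 6 h, and from 48.6 ± 1.86 CPM with NCP22 at 24 h to 107 ± 7.71 CPM with NCP26 at 6 h in L363-CFZr. TNFAIP3 ran from 174 ± 10.6 CPM with HFG at 6 h to 406 ± 27.1 CPM with halofuginol at 24 h in AMO1, and only from 108 ± 2.85 to 148 ± 12 CPM in L363-CFZr, where the highest library of L363-CFZr and the lowest of AMO1 met at 166 CPM. The TRAF1 range in L363-CFZr is between times, since the groups at 6 h lay at 54.6 to 67.6 CPM and those at 24 h at 160 to 219 CPM. Group means of log2 CPM were centred within each line, and the 22 groups share lines, times and library sets. Over them, pairs of the 10 genes correlated from r = -0.691 (NFKBIE and TRAF1) to 0.794 (NFKB2 and NFKBIE), given as a description.

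Other genes of the pathway were read in lists drawn from general knowledge, with earlier results of these data known. In AMO1 at 6 h 18.1% of all tested genes were higher and 19.2% lower with NCP26, and 27.7% and 26.6% with HFG. With CFZ at 6 h the shares were 14.1% higher and 12.8% lower. At 24 h they were 29.8% and 30.9% with NCP26 and 28.5% and 30.5% with HFG. Listed genes were not followed under the GC offset, the set term or left-out libraries. The NCP26 and HFG libraries of AMO1 at 24 h, and the HFG libraries of L363-CFZr at 6 h, lie in another set than DMSO. Of the other REL and IκB family members (REL, NFKBIB, NFKBID, NFKBIZ, BCL3), all 4 that were tested rose in AMO1 at 6 h with NCP26 (median log2 fold change 1.23) and with HFG (1.48). NFKBIZ, a nuclear IκB protein, went from 4.34 ± 0.88 CPM (mean ± SD, n = 3) with DMSO to 15.6 ± 2.81 CPM with NCP26 and 19.2 ± 2.86 CPM with HFG (1.84 ± 0.26, adjusted p = 0.000178 and 2.13 ± 0.23, adjusted p = 1.58e-06). BCL3, another nuclear IκB protein that works with p50 and p52, went from 17.5 ± 2.64 CPM to 46.1 ± 3.85 and 55.1 ± 7.87 CPM (1.40 ± 0.15, adjusted p = 3.26e-05 and 1.71 ± 0.14, adjusted p = 1.24e-07). At 24 h 3 of 5 rose and 1 fell with NCP26, and 4 rose and 1 fell with HFG. In L363-CFZr 2 of 4 rose with NCP26 and 3 of 4 with HFG at 6 h, where 1050 of 10701 and 2822 of 10478 tested genes rose. With CFZ 1 of 4, NFKBIB (0.48 ± 0.12, adjusted p = 0.00321), rose at 6 h.

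Of the 9 receptors counted, 4 were tested. In AMO1 at 6 h 2 fell with NCP26 and 2 with HFG (medians -0.39 and -0.30), where 19.2% and 26.6% of all tested genes fell. With CFZ there 2 rose and 1 fell, against 14.1% and 12.8% of all tested genes. TNFRSF1B, which encodes TNF receptor 2, had 90.8 ± 7.38 CPM with DMSO, 50.6 ± 5.25 CPM with NCP26, 47.5 ± 3.82 CPM with HFG and 49.5 ± 1.87 CPM with CFZ (-0.83 ± 0.12, adjusted p = 0.000175, -0.90 ± 0.097, adjusted p = 1.48e-06 and -0.88 ± 0.097, adjusted p = 4.64e-07). At 24 h the changes were larger in size (-1.51 ± 0.091, adjusted p = 4.4e-15, -2.22 ± 0.11, adjusted p = 3.76e-12 and -1.43 ± 0.14, adjusted p = 0.000291), and it also fell in L363-CFZr at 6 h (-0.70 ± 0.19, adjusted p = 0.0294 and -0.78 ± 0.20, adjusted p = 0.00251). TNFRSF17, which encodes BCMA, fell in AMO1 at 6 h (-0.60 ± 0.14, adjusted p = 0.00482 and -0.73 ± 0.082, adjusted p = 2.41e-06). TNFRSF1A rose in L363-CFZr at 6 h (1.18 ± 0.18, adjusted p = 0.00158 and 0.94 ± 0.19, adjusted p = 0.000182) and with NCP26 at 24 h (1.10 ± 0.21, adjusted p = 0.024). In AMO1 it rose with CFZ at 6 h (0.80 ± 0.26, adjusted p = 0.023) and with HFG at 24 h (0.90 ± 0.30, adjusted p = 0.0146).

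Among the 23 tested adaptors, kinases and ubiquitin enzymes, 4 rose and 1 fell with NCP26 in AMO1 at 6 h (median 0.14). Of all tested genes 18.1% rose and 19.2% fell there. With HFG 9 rose and 2 fell (median 0.18), against 27.7% and 26.6% of all tested genes. At 24 h 8 rose and 5 fell with NCP26 (29.8% and 30.9%), and 7 rose and 6 fell with HFG (28.5% and 30.5%). CYLD, a deubiquitinase that restrains the pathway, had 50.7 ± 1.80 CPM with DMSO, 84.2 ± 16 CPM with NCP26 and 102 ± 3.24 CPM with HFG in AMO1 at 6 h (0.75 ± 0.14, adjusted p = 0.00112 and 1.04 ± 0.087, adjusted p = 1.16e-07), and rose likewise in L363-CFZr (0.73 ± 0.12, adjusted p = 0.00336 and 1.04 ± 0.093, adjusted p = 2.86e-09). The L363-CFZr comparison with HFG crosses library sets, and its log2 fold changes followed GC content at r = -0.568. In the same layout halofuginol moved 4 genes of this list up and 3 down (25.8% of all tested genes changed). RBCK1, a subunit of the linear ubiquitin assembly complex, rose at 24 h with NCP26 in AMO1 (0.85 ± 0.074, adjusted p = 2.78e-11) and in L363-CFZr, where 60.8 ± 4.87 CPM became 173 ± 12.2 CPM (1.52 ± 0.13, adjusted p = 0.00116), and with HFG in L363-CFZr (0.99 ± 0.11, adjusted p = 0.0108). CFZ changed 2 genes of this list upwards and 1 downwards at 6 h, against 14.1% and 12.8% of all tested genes. At 24 h CFZ changed 2 each way, against 13.1% and 14% of all tested genes.

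Of the other NF-kB target genes, 10 to 13 were tested in a comparison with DMSO. In AMO1 at 6 h 5 of 11 rose and 3 fell with NCP26 (median 0.34), against 18.1% and 19.2% of all tested genes. With HFG 5 of 12 rose and 4 fell (median 0.077), against 27.7% and 26.6%. With CFZ 6 of 12 rose and 1 fell (median 0.38), against 14.1% and 12.8%. With NCP22 3 of 12 rose and 3 fell, where 13.5% of all tested genes changed, and with halofuginol 0 of 12 changed (3.62%). GADD45B, a stress-induced gene, had 34.6 ± 2.96 CPM with DMSO, 204 ± 11.5 CPM with NCP26 and 252 ± 5.47 CPM with HFG (2.56 ± 0.11, adjusted p = 1.6e-08 and 2.90 ± 0.089, adjusted p = 9.41e-13). TNIP1, which encodes a binding partner of A20, fell from 293 ± 7.11 CPM to 157 ± 6.37 CPM with NCP26 and 149.7 ± 4.78 CPM with HFG (-0.89 ± 0.094, adjusted p = 2.65e-05 and -0.93 ± 0.070, adjusted p = 3.73e-08). The genes that led with CFZ in AMO1 at 6 h were PLEK (1.93 ± 0.10, adjusted p = 2.89e-12) and IRF1 (1.42 ± 0.085, adjusted p = 2.6e-11). PLEK also rose with NCP26 in AMO1 at 24 h (1.78 ± 0.11, adjusted p = 9.65e-15). IRF1 also rose with NCP26 in L363-CFZr at 6 h (0.78 ± 0.21, adjusted p = 0.0251). In AMO1 at 24 h 8 of 13 rose and 5 fell with NCP26, against 29.8% and 30.9% of all tested genes. HFG there raised 6 of 13 and lowered 4 (28.5% and 30.5%), and CFZ raised 4 of 12 and lowered 3 (13.1% and 14%). CD74, the invariant chain of MHC class II, fell in AMO1 at 24 h with HFG from 2894 ± 99.3 to 1377 ± 22.9 CPM (-1.07 ± 0.035, adjusted p = 1.06e-14) and with CFZ (-1.16 ± 0.12, adjusted p = 0.000382). In L363-CFZr 4 of 12 rose and 2 fell with NCP26 and 4 of 11 rose and 4 fell with HFG at 6 h, where 1050 of all 10701 tested genes rose and 962 fell with NCP26 and 2822 of 10478 rose and 2884 fell with HFG. With halofuginol 1 of 11 rose and 4 fell there, where 25.8% of all tested genes changed. At 24 h in L363-CFZr 5 genes of the 4 lists together passed with NCP26 (7.09% of all tested genes) and 1 with HFG (1.17%). Several of these genes also answer to other stress pathways.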

How the data were processed

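RNA was sequenced as paired ends from directional poly(A) libraries of 22 groups of 3 replicates. The authors deposited raw counts (whole numbers) for each Ensembl gene, obtained by kallisto pseudoalignment. The methods name GRCh38 and the submitters' processing notes hg19, and for the kallisto version, transcript annotation, strand setting and the step to whole numbers the sources used here give nothing. Pseudoalignment divides reads that fit several transcripts, and 0 to 1.76% of a member's 31-mers occur in another gene. Groups came from the sample titles. Symbols matched 19299 of 20167 identifiers.

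Each of the 39 comparisons was fitted with edgeR 4.0.16 (R 4.3.3; quasi-likelihood F test, TMM, filterByExpr at a count of 10 and a total of 15) on the compared libraries alone, with Benjamini-Hochberg adjustment over all tested genes. Each SE was obtained from the size of the log2 fold change over the root of its F. Figures were drawn with matplotlib 3.10.9. The count script was tested on simulated data. Depth ran from 1666325 to 6596543 counts per library, and replicate pairs correlated at r = 0.929 to 0.984, with none identical.

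Alternatives were DESeq2 1.42.0 (Wald test, and its size factors in edgeR), no count filter, a GC offset, the replicate number as a block, all groups of a line in 1 fit, the library set as a term, and leaving out each library. The members and lists were chosen with earlier results of these data known. All members are named. Of a pathway list, names were taken from up to 2 genes per DMSO comparison of NCP26, HFG and CFZ, those with the largest change among those past the threshold, at 5 CPM or more on average and without overlap. 6 listed genes (IKBKG, MAP3K14, CCL3, CCL4, CCL5, SOD2) were not analysed here.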

Additional observations from a re-analysis of the deposited data

Results flagged for a closer look

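The tests below are of the difference of a response between the lines or the times, each past the threshold of an adjusted p of 0.05 (edgeR, all tested genes), given as log2 values. The response to HFG at 6 h in L363-CFZr minus that in AMO1 was -0.54 for NFKB1, -0.34 for NFKB2, -0.50 for RELB, -0.52 for NFKBIE, 0.70 for TNFAIP3 and 0.40 for BIRC3. At 24 h it was -0.43 for NFKB2, -0.89 for NFKBIA, -0.92 for NFKBIE, 0.74 for TNFAIP3, -0.64 for TRAF1 and 0.77 for TRAF3. For NCP26 at 24 h it was -0.78 for NFKB1 and -0.45 for NFKB2. As given above, several of these calls were lost in fits without 1 library. These were NFKBIE and BIRC3 with HFG at 6 h, and NFKB2, NFKBIE, TRAF1 and TRAF3 with HFG at 24 h. NFKB2 with NCP26 at 24 h was lost likewise. Line difference and library set go together in these comparisons.

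The response in AMO1 at 24 h minus that at 6 h was, for NCP26, 0.39 for NFKB2, -0.66 for RELB, 0.86 for TNFAIP3 and 0.58 for BIRC3. For HFG it was -0.56 for NFKB1, -0.64 for RELB, 0.53 for NFKBIA and -0.69 for TRAF3, and for CFZ 0.77 for NFKBIA. Of the NCP26 calls, NFKB2 was lost in some fits without 1 library, and BIRC3 alone stayed with the set term.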

How the results depend on the processing

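Over 5490 values of a member under an alternative, 5141 kept their side of the threshold, with the same direction where there was a call. Values without a call in either fit were counted there whatever their direction. Of the rest, 230 lost a call, 115 gained one and 4, with a call in either fit, reversed. The reversed values were BIRC3 with HFG in AMO1 at 6 h (-0.115 with the GC offset, from 0.26), NFKB2 and NFKBIE with HFG in L363-CFZr at 6 h (0.27 and 0.34 with the GC offset, from -0.080 and -0.0045) and RELA between the lines in DMSO at 6 h (-0.085 with the set term, from 0.31). The cause was not tested. Calls that stayed but moved by more than 1.5 times, other than those in the report, were, with the GC offset, NFKBIE with NCP26 at 6 h (0.66), RELB with NCP26 (0.58) and BIRC3 and TRAF1 with HFG (0.13 and 0.29) at 24 h in AMO1, RELA and RELB in DMSO between the lines (0.20 at 6 h and -0.72 at 24 h), RELB and BIRC3 for NCP26 against NCP22 in AMO1 at 24 h (0.69 and 0.40), NFKB2 and BIRC3 for HFG against halofuginol in L363-CFZr (0.30 at 6 h and 0.17 at 24 h) and the HFG line difference of BIRC3 at 6 h (0.26), and, with the set term, the HFG time difference of TRAF3 (-1.04).

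The counts of called members that moved by more than 1.5 times were as follows. Without a filter, NCP22 in AMO1 at 6 h and the NCP26 line difference at 6 h went from 0 to 1, the NCP26 line difference at 24 h from 2 to 1 and that of HFG at 24 h from 6 to 3. With the GC offset, halofuginol went from 1 to 0 in AMO1 and 4 to 0 in L363-CFZr at 6 h, NCP26 and NCP26 against HFG in L363-CFZr at 24 h from 0 to 1, NCP26 against NCP22 in L363-CFZr at 6 h from 2 to 1 and the CFZ time difference from 1 to 2. With DESeq2, NCP26 in L363-CFZr at 24 h and its line difference at 6 h went from 0 to 1 and HFG against halofuginol in L363-CFZr at 24 h from 2 to 1. With all groups of a line in 1 fit, NCP26 and HFG in L363-CFZr at 24 h went from 0 to 4 and 0 to 2, HFG against halofuginol in L363-CFZr from 6 to 2 at 6 h and 2 to 1 at 24 h, the NCP26 line difference from 0 to 2 at 6 h and 2 to 5 at 24 h, and the CFZ time difference from 1 to 4. With the set term, NCP26 and HFG in AMO1 at 24 h went from 8 and 10 to 5 each, HFG and halofuginol in L363-CFZr at 6 h from 6 to 2 and 4 to 0, NCP26 and HFG in L363-CFZr at 24 h from 0 to 4 and 0 to 2, HFG against halofuginol in L363-CFZr from 6 to 2 at 6 h and 2 to 1 at 24 h, the NCP26 line difference from 0 to 2 at 6 h and 2 to 1 at 24 h, that of HFG at 24 h from 6 to 3, the NCP26 time difference from 4 to 1 and that of CFZ from 1 to 3. DESeq2's size factors moved no count by this much.

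Replicate numbers did not pair the samples (0 of 32 comparisons; r of same-numbered deviations -0.254 to 0.19). With the replicate block, NCP22 in AMO1 at 6 h went from 0 to 1, the DMSO difference at 24 h from 5 to 3 and the line differences at 24 h from 2 to 0 (NCP26) and 6 to 3 (HFG). Over all 390 values, the block lost 12 calls and gained 2.

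Leaving out 1 library gave these ranges of counts where they moved by more than 1.5 times: 0 to 2 (AMO1 NCP22 against DMSO at 6 h), 0 to 2 (AMO1 halofuginol against DMSO at 6 h), 1 to 4 (L363-CFZr NCP26 against DMSO at 6 h), 0 to 4 (L363-CFZr NCP26 against DMSO at 24 h), 0 to 2 (L363-CFZr HFG against DMSO at 24 h), 3 to 7 (DMSO, L363-CFZr against AMO1 at 24 h), 1 to 3 (L363-CFZr NCP26 against NCP22 at 6 h), 0 to 1 (L363-CFZr NCP26 against HFG at 6 h), 0 to 1 (L363-CFZr NCP26 against HFG at 24 h), 0 to 1 (NCP26 effect, L363-CFZr minus AMO1 at 6 h), 1 to 6 (NCP26 effect, L363-CFZr minus AMO1 at 24 h), 2 to 7 (HFG effect, L363-CFZr minus AMO1 at 24 h) and 1 to 5 (CFZ effect in AMO1 at 24 h minus 6 h). With 32 to 2709 counts of a member in a library, the members at the low end, TRAF3 in L363-CFZr and NFKBIE, are the least precise.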

Other observations

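TRAF1 had different levels at the 2 times in DMSO libraries of L363-CFZr. It had 64.8, 60.0 and 65.1 CPM with DMSO at 6 h and 189.7, 278 and 189 CPM at 24 h, and in AMO1 38.4, 49.4 and 35.4 CPM and 77.8, 75.6 and 74.2 CPM. The times differ in handling in AMO1, and the paper's methods do not name L363-CFZr there. The L363-CFZr DMSO libraries of the 2 times are in different library sets, while the AMO1 DMSO libraries of both times are in set 1. The HFG and halofuginol libraries of L363-CFZr are in set 3 at both times. In these TRAF1 had 53.9 to 55.2 CPM with HFG at 6 h and 151 to 175 CPM at 24 h. With halofuginol it had 50.2 to 60.4 CPM at 6 h and 156 to 183 CPM at 24 h. These differences were not tested.

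The genes whose group means, centred within each line, followed a member most closely over the 22 groups are given as a description, since groups share lines, times and library sets. They were H2AC6 for NFKB1 (r = 0.907), ZNF79 for NFKB2 (r = 0.84), MAP2K7 for RELA (r = 0.936), KPNA4 for RELB (r = 0.916), SNX2 for NFKBIA (r = 0.891), PSMD9 for NFKBIE (r = 0.902), NECTIN1 for TNFAIP3 (r = 0.919), ZDHHC21 for BIRC3 (r = 0.924), GOLGA8B for TRAF1 (r = 0.969) and TCEAL8 for TRAF3 (r = 0.93).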
